A study of Mus musculus with 6 samples.

Results

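The 9 genes described here encode ligands, receptors and latent-complex presenting or activating proteins of the TGF-beta pathway: Tgfb1, Tgfb3, Tgfbr1, Tgfbr2, Tgfbr3, Lrrc32, Itgb8, Ltbp3 and Furin. They were chosen by name, with earlier results of these data known. Their rows were taken from a table of 25759 mouse genes through the Ensembl identifier of each symbol. The 6 libraries came from CD4+ T cells sorted for a Foxp3-GFP reporter (adaptive regulatory T cells, aTreg), 3 of them from wild type C57BL/6 mice (WT) and 3 from C57BL/6 mice labelled BMPR/CD4cre (BMPR1a-deficient), all 8 to 12 weeks old. In the latter, Cre is expressed from Cd4 and deletes BMPR1a, which is one of the type I receptors of the bone morphogenetic proteins (BMPs). This driver is active in the T cell lineage rather than in regulatory T cells alone. Both groups carried the reporter, and both sets of lymph node and spleen cells had been cultured before the sort for 3 days with IL-2 (10 ng/ml), TGF-beta (3 ng/ml) and the mitogen concanavalin A (2 µg/ml). Every value below therefore comes from cells that had been given active TGF-beta. The comparison asks how these genes differ between WT aTreg and aTreg from mice in which this receptor gene is targeted.

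TGF-beta is made as a precursor that the protease furin cuts in the secretory pathway, after which the ligand stays wrapped in its propeptide and cannot bind receptors. Carrier proteins hold this latent complex, GARP (encoded by Lrrc32) on the surface of activated regulatory T cells and LTBP proteins in the matrix, and integrins such as αvβ8 release or expose the ligand. Freed ligand is bound by the type II receptor TGFBR2, which then phosphorylates the type I receptor TGFBR1, and TGFBR1 phosphorylates SMAD2 and SMAD3. In CD4 T cells this signal induces Foxp3, and SMADs also feed back on inhibitors of the pathway.

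Tgfbr1, the type I receptor gene, was the member that passed the threshold, and it rose 2.64-fold in mean FPKM (fragments scaled to transcript length and library size) in BMPR1a-deficient aTreg. Its partner Tgfbr2 and the main ligand gene Tgfb1 were expressed several times higher than Tgfbr1 in WT and had fold changes of 1.03 and 1.15 that did not pass. Lrrc32 and Furin had means 1.91-fold and 1.41-fold higher and groups that did not overlap, without passing the threshold. Tgfb3, Itgb8 and Ltbp3 were below 1 FPKM in every library, and so below the mean of 1 FPKM required for the test. Among the 13413 genes tested 1.07% passed in either direction (0.746% higher), and 15.9% were higher without overlap of the groups.

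Depth estimated from the low end of the FPKM values was 30200000 to 38200000 fragments a library. The genes the sort relied on were well expressed, Cd4 at 329 to 436 FPKM and Foxp3 at 49.4 to 96.9. Summed CD4 T cell and regulatory T cell markers (7 genes) were at 1834 to 1862 FPKM in WT and at 1674 to 1812 in BMPR1a-deficient aTreg, without overlap. Of these genes Ctla4 was lower without overlap, at 238, 275 and 249 FPKM in WT against 103, 204 and 203. Cd3g was too, at 549, 547 and 506 against 481, 474 and 499. Neither passed (limma adjusted p = 0.361 and 0.571), and groups overlapped for the others. Bmpr1a was at 1.39, 2.34 and 1.31 FPKM in WT and at 0.439, 0.720 and 0.691 in BMPR1a-deficient aTreg, which does not overlap (limma log2 fold change -0.71, SE 0.195, adjusted p = 0.183). BMPR1a-deficient replicate 1 stood apart in its 13 mitochondrially encoded protein genes, which summed to 5335 FPKM against 44657 to 53788 in the other libraries. Summed macrophage, monocyte and dendritic cell markers (8 genes, 4 of them with a mean of at least 1 FPKM) were at 104, 19.4 and 42.2 FPKM in WT and at 11.2, 44.5 and 88.4 in BMPR1a-deficient aTreg, so the groups overlapped. Summed CD8 T and NK cell markers (5 genes, 2 of them at a mean of at least 1 FPKM) were at 32.1 to 41.9 and 38.5 to 69.1 FPKM, so the groups overlapped. Of these genes Cd8a was at 11.7, 9.56 and 8.80 FPKM in WT against 13.8, 17.2 and 29.1, Cd8b1 at 30.1, 23.1 and 23.2 against 24.1, 26.9 and 39.3, and Klrb1c below 1 FPKM in every library, at 0.126, 0.0727 and 0.0692 against 0.598, 0.760 and 0.648. Cd8a and Klrb1c did not overlap between groups, and Cd8b1 did. Summed B cell markers were at 25.4 to 50.5 FPKM in WT and at 35.2 to 49.6 in BMPR1a-deficient aTreg, and all 5 had a mean of at least 1 FPKM. The 5 platelet markers summed to at most 3.44 FPKM, with Ppbp and Gp9 at or near 0. Only Itga2b among them had a mean of at least 1 FPKM, with libraries from 0.646 to 2.64. Gp1ba stayed below 1 FPKM but did not overlap between groups. Its WT libraries were at 0.360, 0.335 and 0.420, below the BMPR1a-deficient ones at 0.678, 0.440 and 0.551. Groups overlapped for the other platelet markers, Itga2b included. Of the stromal and endothelial markers only Pecam1, which T cells also express, had a mean of at least 1 FPKM. The part of these cells in the results was not tested. In a sorted bulk sample, fewer cells of a type and less RNA per cell cannot be told apart. Whether each library is a separate animal or culture is not stated in the labels. The p-values therefore describe spread between libraries that may be partly technical.

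**Figure D1:**
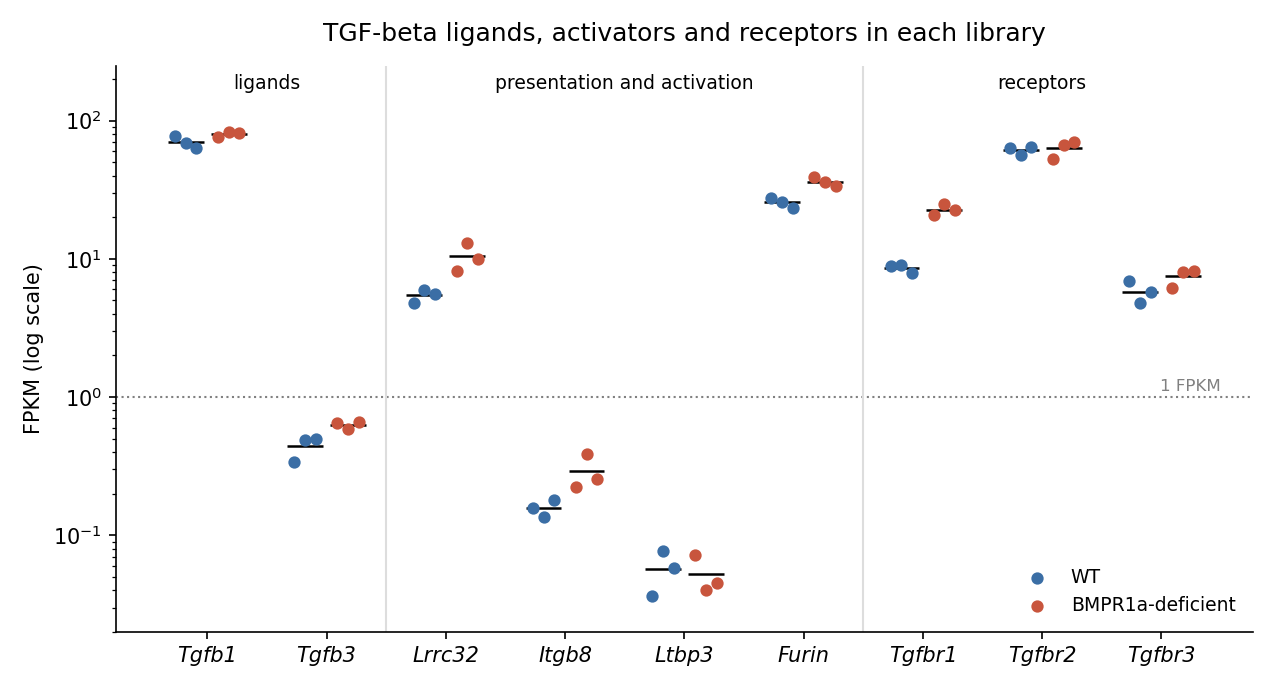
FPKM of the 9 members in each library on a log scale, grouped as ligands, presenting and activating genes, and receptors. Each point is 1 library (3 WT and 3 BMPR1a-deficient, replicates 1 to 3 from left to right), short lines are group means, and the dotted line marks 1 FPKM. Tgfbr1 shows the widest gap between groups for its spread, from 7.95 to 9.02 in WT and from 20.7 to 24.9 in BMPR1a-deficient aTreg.

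Of the ligands, Tgfb1 (ENSMUSG00000002603, chromosome 7, 25687002 to 25705077 in GRCm38, plus strand) was the member with the highest level in both groups. It encodes the TGF-beta isoform that lymphocytes mainly produce. Its FPKM was 77.6, 68.2 and 63.3 in WT replicates 1 to 3 and 75.8, 82.9 and 81.2 in BMPR1a-deficient replicates 1 to 3. WT replicate 1 lay above the lowest BMPR1a-deficient library, so the groups overlapped. The log2 fold change, BMPR1a-deficient minus WT on log2(FPKM + 1), was 0.20 (SE 0.112, 95% interval -0.08 to 0.47). It missed the threshold of 0.05 (limma, Benjamini-Hochberg adjusted p = 0.447 over all genes tested).

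Tgfb3 (ENSMUSG00000021253, chromosome 12, 86056745 to 86079041, minus strand), a second isoform that is prominent in epithelial and mesenchymal development, was low. It was at 0.341, 0.489 and 0.496 FPKM in WT and at 0.646, 0.588 and 0.661 in BMPR1a-deficient aTreg. All 3 BMPR1a-deficient values lay above the WT values, by 1.43-fold in the mean. An exact two-sided permutation test of the 6 values gave p = 0.1, the smallest that 3 against 3 libraries allow. With its annotated length and the estimated depths these levels stand for only about 35 to 83 fragments a library. The span of Tgfb3 also overlaps that of Ttll5 on the opposite strand, which was at 4.16 to 6.78 FPKM. The strand handling of the libraries is not given in the sources used here. Whether exons of the pair overlap was not checked, so some reads may not be separable. The remaining isoform gene Tgfb2 had means of 0.0248 FPKM in WT against 0.0150 in BMPR1a-deficient aTreg.

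Among the genes that present or activate latent TGF-beta, Lrrc32 and Furin were the members well above 1 FPKM. Lrrc32 (ENSMUSG00000090958, chromosome 7, 98489283 to 98502181, plus strand) was at 4.79, 5.96 and 5.57 FPKM in WT and at 8.15, 13.1 and 9.95 in BMPR1a-deficient aTreg. The groups did not overlap, and BMPR1a-deficient replicate 2 was the highest. The log2 fold change was 0.80 (SE 0.178, 95% interval 0.37 to 1.24, limma adjusted p = 0.119). It was 0.95 without BMPR1a-deficient replicate 1, the library with few mitochondrial transcripts (limma adjusted p = 0.0659), and 0.64 without BMPR1a-deficient replicate 2 (0.225), and no fit that left out a library passed (adjusted p up to 0.374). It passed when limma weighted the samples by their quality (adjusted p = 0.0189), a setting that raised the calls over all genes from 100 to 833 higher and from 43 to 407 lower. Foxp3, the transcription factor that defines regulatory T cells and a gene with which GARP is typically co-expressed, was at 55.9, 49.4 and 62.3 FPKM in WT and at 51.3, 96.9 and 72.1 in BMPR1a-deficient aTreg. The libraries had the same order for Lrrc32 and Foxp3 within the BMPR1a-deficient group but not within WT, where replicate 2 was highest for Lrrc32 and lowest for Foxp3. BMPR1a-deficient replicate 1 combined a Foxp3 value within the WT range with an Lrrc32 value above it.

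Furin (ENSMUSG00000030530, chromosome 7, 80388585 to 80405436, minus strand), the proprotein convertase that cuts the TGF-beta precursor, was at 27.5, 25.8 and 23.4 FPKM in WT. It was at 39.3, 35.7 and 33.5 FPKM in BMPR1a-deficient aTreg, above all 3 WT libraries. Here BMPR1a-deficient replicate 1 was the highest library, whereas it was the lowest of its group for 6 of the 9 members. The log2 fold change was 0.48 (SE 0.108, 95% interval 0.22 to 0.75, limma adjusted p = 0.119), and the fits that left out a library gave adjusted p from 0.107 to 0.416. It passed with the same sample weights that raised the calls over all genes (adjusted p = 0.0217) and not with a replicate block (0.199). Another convertase gene, Pcsk7, was at 14.1 ± 0.209 FPKM in WT against 14.3 ± 0.867 in BMPR1a-deficient aTreg (SD, n = 3 per group), and Pcsk5 and Pcsk6 were at or near 0 in every library.

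Itgb8 and Ltbp3 were close to the lower end of what these libraries could measure. Itgb8 (ENSMUSG00000025321, chromosome 12, 119158022 to 119238802, minus strand) encodes the β subunit of the integrin αvβ8, which activates latent TGF-beta. It was at 0.158, 0.136 and 0.179 FPKM in WT and at 0.225, 0.389 and 0.257 in BMPR1a-deficient aTreg. All 3 BMPR1a-deficient libraries were above the WT ones, and the mean was 1.84-fold higher (exact two-sided permutation test, p = 0.1, the smallest possible), from about 46 to 138 fragments a library. Its partner Itgav, the αv subunit, was at 8.94 ± 0.318 FPKM in WT against 10.5 ± 1.47 in BMPR1a-deficient aTreg (SD, n = 3 per group, limma adjusted p = 0.469).

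Ltbp3 (ENSMUSG00000024940, chromosome 19, 5740904 to 5758532, plus strand), which encodes a matrix protein that binds the latent complex, was at 0.0364, 0.0765 and 0.0578 FPKM in WT. It was at 0.0717, 0.0399 and 0.0448 FPKM in BMPR1a-deficient aTreg. The groups overlapped fully, and a difference was not detectable at about 10 to 23 fragments a library (exact two-sided permutation test, p = 0.8). Of the other carriers, Ltbp1 was at 4.32 ± 0.589 and 4.34 ± 0.813 FPKM (SD, n = 3 per group) and Nrros, which anchors latent TGF-beta on myeloid cells, at 14.6 ± 2.81 and 10.9 ± 2.49 (limma adjusted p = 0.426).

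The receptors differed from each other. Tgfbr1 (ENSMUSG00000007613, chromosome 4, 47353222 to 47414931, plus strand) was at 8.83, 9.02 and 7.95 FPKM in WT and at 20.7, 24.9 and 22.5 in BMPR1a-deficient aTreg. The lowest BMPR1a-deficient library was more than the highest WT library by a wide margin, and the 3 libraries of each group lay close together. The mean rose from 8.60 ± 0.571 to 22.7 ± 2.15 FPKM (SD, n = 3), a log2 fold change of 1.30 (SE 0.105, 95% interval 1.04 to 1.56, limma adjusted p = 0.0116). The call held without BMPR1a-deficient replicate 1 (limma adjusted p = 0.0135), without WT replicate 1 (0.0434) and without BMPR1a-deficient replicate 2 (0.0356). It was lost without WT replicate 2 (adjusted p = 0.0582), without WT replicate 3 (0.0711) and without BMPR1a-deficient replicate 3 (0.0592), while the log2 fold change stayed between 1.23 and 1.36 in all 6 of these fits.

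Tgfbr2 (ENSMUSG00000032440, chromosome 9, 116084293 to 116175360, minus strand), the receptor that binds the ligand first, was at 63.6, 56.6 and 64.7 FPKM in WT and at 53.1, 67.0 and 69.9 in BMPR1a-deficient aTreg. BMPR1a-deficient replicate 1 was below all WT libraries and the other 2 were above them. The log2 fold change was 0.03 (SE 0.137, 95% interval -0.30 to 0.37, limma adjusted p = 0.919), and 0.15 without that replicate. Its sign turned under upper-quartile scaling and when some other libraries were left out, so no direction can be given.

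Tgfbr3 (ENSMUSG00000029287, chromosome 5, 107106570 to 107289629, minus strand) encodes betaglycan, a co-receptor that carries ligand to TGFBR2 and also binds inhibin and BMPs. It was at 6.85, 4.75 and 5.77 FPKM in WT and at 6.19, 8.04 and 8.20 in BMPR1a-deficient aTreg. BMPR1a-deficient replicate 1 lay within the WT range. The log2 fold change was 0.32 (SE 0.161, 95% interval -0.07 to 0.72, limma adjusted p = 0.400).

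Because the receptor pair is the point where the members differed most, the 250 bases before the annotated start of each gene are given here from RefSeq (GRCm38.p6), 5′ to 3′ on the strand of the gene. They were searched on both strands for CAGAC, a core recognised by SMAD3 and SMAD4, and for GGCGCC, a palindromic core recognised by SMADs of the BMP branch and others. Capitals mark these matches. The Tgfbr1 window is chr4:47352972-47353221 on the plus strand and the Tgfbr2 window is chr9:116175364-116175613 on the minus strand.
Tgfbr1: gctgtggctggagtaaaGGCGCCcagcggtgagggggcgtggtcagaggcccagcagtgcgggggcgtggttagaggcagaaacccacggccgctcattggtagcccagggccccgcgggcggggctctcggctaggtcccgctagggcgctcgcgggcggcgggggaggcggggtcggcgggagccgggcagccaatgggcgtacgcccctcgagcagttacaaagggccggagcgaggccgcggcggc
Tgfbr2: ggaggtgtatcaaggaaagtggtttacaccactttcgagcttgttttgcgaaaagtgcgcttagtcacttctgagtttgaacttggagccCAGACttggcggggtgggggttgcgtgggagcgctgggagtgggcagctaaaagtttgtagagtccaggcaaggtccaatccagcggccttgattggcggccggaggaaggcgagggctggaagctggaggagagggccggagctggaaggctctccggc

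The Tgfbr1 window held 1 GGCGCC and 0 CAGAC, and the Tgfbr2 window held 0 and 1. Among 27025 windows of the same length from that RefSeq table, 1 per gene, 9.54% held GGCGCC and 42.1% held CAGAC. These shares are not matched for base content. The Tgfbr1 window was 74.8% G and C with 29 CG dinucleotides, against 58.4% and 12 for Tgfbr2 and medians of 52% and 6 over the same 27025 windows. RefSeq gives Tgfbr1 a second annotated start at 47386216, whose window held 1 CAGAC and 0 GGCGCC, and gene-level FPKM do not show which start was used. Windows were found for 6 of the 9 members. The Tgfb1 window held 0 of both cores, those of Itgb8 and Ltbp3 1 CAGAC each, and Furin had 2 windows with 2 and 1 CAGAC and 0 and 2 GGCGCC. A match describes letters in the window and says nothing of binding.

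FPKM are per length, so levels could be set in order between genes. In WT the order was Tgfb1 (mean 69.7 FPKM), Tgfbr2 (61.6), Furin (25.6), Tgfbr1 (8.60), Tgfbr3 (5.79), Lrrc32 (5.44), Tgfb3 (0.442), Itgb8 (0.158) and Ltbp3 (0.0569). Neighbours whose library values overlapped were Tgfb1 with Tgfbr2 and Tgfbr3 with Lrrc32. In BMPR1a-deficient aTreg the order was the same except that Lrrc32 (10.4 FPKM) came before Tgfbr3 (7.48), and these were the one pair of neighbours that overlapped. The coefficient of variation within a group was lowest for Tgfb1 in BMPR1a-deficient aTreg (4.67%) and highest for Ltbp3 in WT (35.2%). It was 6.64% and 9.46% for Tgfbr1, and 10.9% and 24.1% for Lrrc32.

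Ratios taken within a library do not depend on how libraries were scaled to each other. The FPKM ratio of Tgfbr1 to Tgfbr2 was 0.139, 0.159 and 0.123 in WT against 0.390, 0.372 and 0.322 in BMPR1a-deficient aTreg. The type I receptor transcript was thus less abundant than the type II transcript in every library, and the gap was narrower in BMPR1a-deficient aTreg, with no overlap of the groups (log2 difference 1.37, SE 0.137, exact two-sided permutation p = 0.1, the smallest possible). The ratio of Lrrc32 to Tgfb1 was 0.0617, 0.0873 and 0.0880 in WT against 0.107, 0.158 and 0.122 in BMPR1a-deficient aTreg, a log2 difference of 0.71 (SE 0.235, exact p = 0.1). The ratio of Furin to Tgfb1 was 0.355, 0.378 and 0.370 in WT against 0.519, 0.431 and 0.413 in BMPR1a-deficient aTreg, a log2 difference of 0.30 (SE 0.105, exact p = 0.1). In each case all BMPR1a-deficient libraries were above all WT libraries. Tgfbr1, Lrrc32 and Furin already did so as single genes, so the ratios are no separate support.

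**Figure D2:**
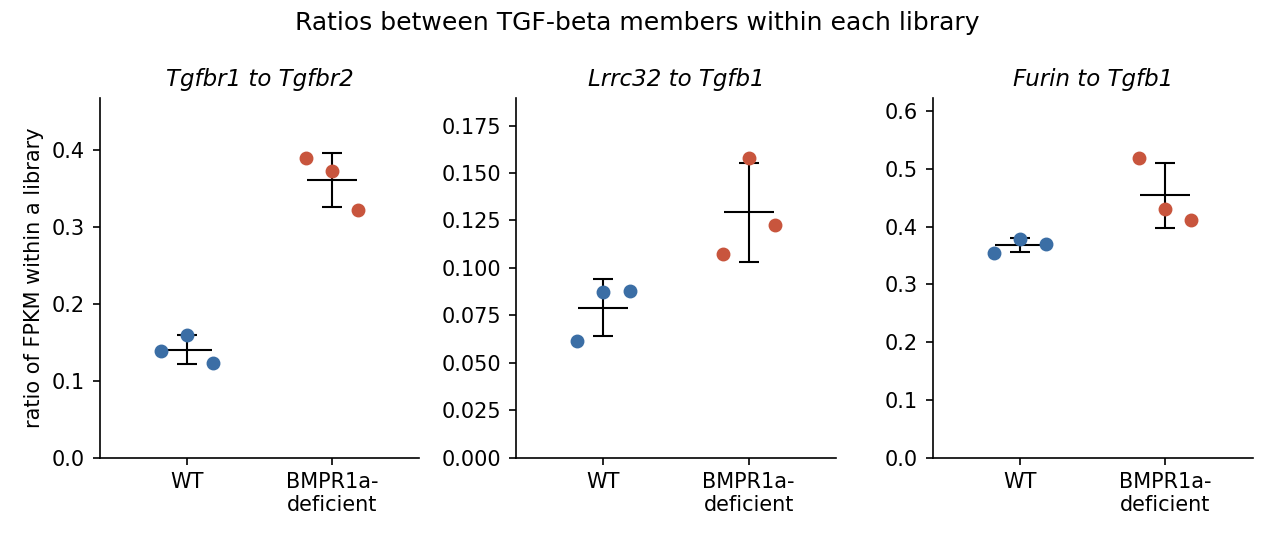
Ratio of the FPKM of 2 members within each library, for Tgfbr1 to Tgfbr2, Lrrc32 to Tgfb1 and Furin to Tgfb1, each axis starting at 0. Points are libraries, and bars are the mean ± SD (n = 3 per group). The Tgfbr1 to Tgfbr2 ratio was 0.140 ± 0.0183 in WT and 0.361 ± 0.0352 in BMPR1a-deficient aTreg.

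Set against all genes, 1 of the 6 tested members was called higher and 0 lower, where 0.746% of the 13413 genes tested were called higher and 0.321% lower (limma, adjusted p under 0.05, 100 and 43 genes, or 1.07% in all). With quantile normalization the calls split into 88 higher and 70 lower. Groups did not overlap for 3 of the 6 tested members, all higher, where 15.9% of all genes tested were higher and 10.4% lower in this way (26.3% in all). All 6 tested members were at or above 1 FPKM in every library, so none passed the filter through 1 group alone. The median log2 fold change was 0.40 over the 6 tested members and 0.04 over all genes tested. The members were chosen with earlier results of these data known, so these shares and medians are no independent support.

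**Figure D3:**
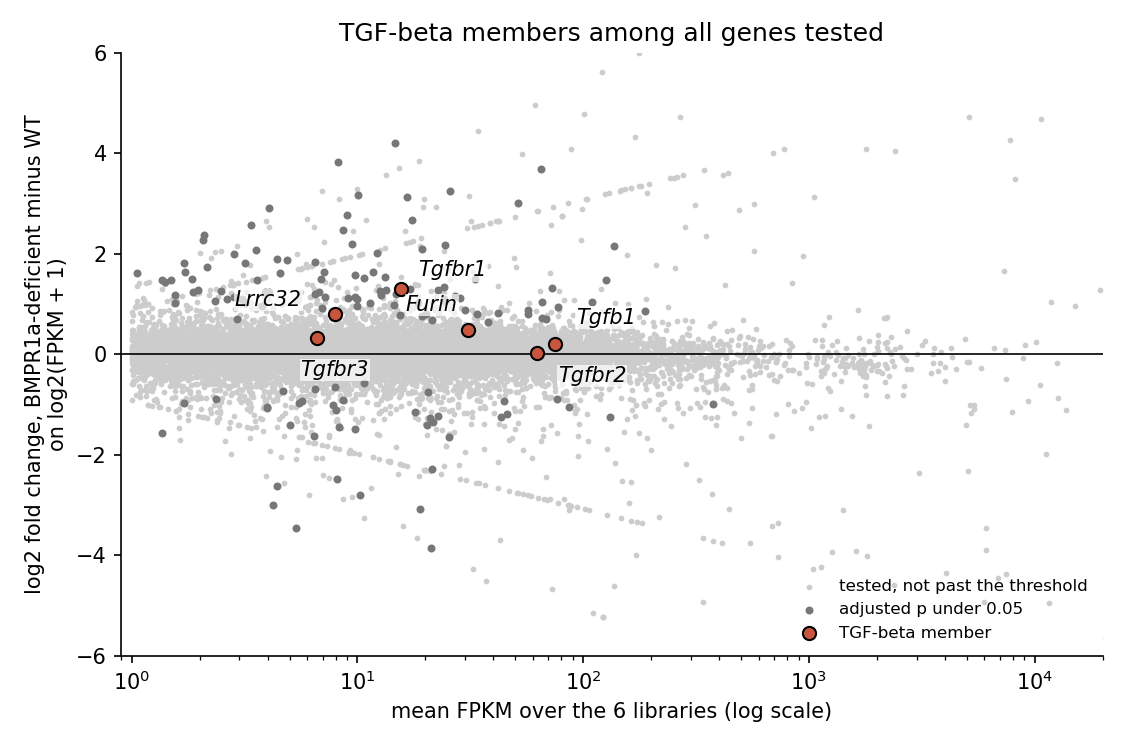
Log2 fold change on log2(FPKM + 1) against mean FPKM (log scale) for the genes tested with limma; 47 of the 13413 genes lie outside the axes. Pale points did not pass, dark points had an adjusted p under 0.05, and large points are the 6 tested members. Tgfbr1 lies at 1.30, Lrrc32 at 0.80 and Furin at 0.48, while Tgfbr2 lies near 0.

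The other genes of the pathway were read from a list of 45 ligands, carriers, proteases, co-receptors, SMADs and SMAD regulators, of which 30 were tested. Of these, 1 was higher (Ldlrad4) and 2 were lower (Itgb3 and Acvrl1), with a median log2 fold change of 0.06. Over all genes tested 0.746% were called higher and 0.321% lower. Groups did not overlap for 10 higher and 5 lower genes of the 30, where 15.9% and 10.4% of all genes tested did so. Smad2, which TGFBR1 phosphorylates, had means of 22.7 and 22.6 FPKM (limma adjusted p = 0.970). Smad4, the shared partner of SMAD2 and SMAD3, had means of 29.8 and 25.7 FPKM, lower without overlap of the groups but not called (limma adjusted p = 0.330). The genes that stood apart were a feedback inhibitor, an integrin subunit and a receptor.

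Acvrl1 encodes ALK1, another type I receptor, which can pair with TGFBR2 and binds BMP ligands with BMP type II receptors. It was at 8.87, 6.12 and 7.83 FPKM in WT and at 3.46, 3.47 and 3.12 in BMPR1a-deficient aTreg, the opposite direction from Tgfbr1 (log2 fold change -0.97, SE 0.143, limma adjusted p = 0.0477). None of the 6 fits without 1 library kept this call (adjusted p from 0.0705 to 0.237) and under upper-quartile scaling (0.0586) and quantile normalization (0.0713). Itgb3 encodes the β3 integrin subunit, which with αv can also activate latent TGF-beta. It fell from 28.2, 35.1 and 33.2 FPKM to 14.2, 13.3 and 11.9 (log2 fold change -1.23, SE 0.121, limma adjusted p = 0.0172). Its call held without replicate 1 of either group (adjusted p = 0.0352 for WT and 0.0277 for BMPR1a-deficient), and was lost in the other 4 fits. Those fits gave adjusted p = 0.0857 without WT replicate 2, 0.104 without WT replicate 3, 0.0627 without BMPR1a-deficient replicate 2 and 0.0809 without replicate 3.

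Smad3, which TGFBR1 phosphorylates and which acts at a Foxp3 enhancer, was lower in each BMPR1a-deficient library, at 5.66, 8.57 and 8.42 FPKM in WT against 2.46, 4.53 and 3.78 in BMPR1a-deficient aTreg (log2 fold change -0.91, SE 0.229, limma adjusted p = 0.157). The difference did not pass the threshold. Nrp1, a co-receptor of several ligands that can bind TGF-beta and is found on regulatory T cells, was at 4.44, 4.42 and 3.02 FPKM in WT and at 10.05, 7.36 and 6.93 in BMPR1a-deficient aTreg (log2 fold change 0.88, adjusted p = 0.111). Usp11, a deubiquitinase reported to act on TGFBR1, was at 3.82 ± 0.255 and 6.35 ± 0.601 FPKM (SD, n = 3 per group, adjusted p = 0.0706). Their groups did not overlap either, and none of the 3 was called.

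Genes that TGF-beta is known to induce or regulate were read from a list of 13, of which 12 were tested and 6 also stand in the pathway list. Of these 1 was higher, Ldlrad4, and 0 were lower, with a median log2 fold change of 0.51. Groups did not overlap for 7 of the 12, all higher, where 15.9% of all genes tested were higher in this way and 0.746% were called higher. All of these 7 except Itgae and Ccr8 also stand in the pathway list and were counted there. The list was drawn up with earlier results of these data known, so its count is no separate support. Ldlrad4 encodes a membrane protein that keeps SMADs from TGFBR1, and it rose from 12.6, 8.08 and 8.18 FPKM to 22.0, 25.7 and 26.3 (log2 fold change 1.29, SE 0.186, limma adjusted p = 0.0450). This call held only without WT replicate 1 (adjusted p = 0.0287) among the 6 fits, whose adjusted p otherwise lay between 0.0615 and 0.205, and it was lost with upper-quartile scaling (0.0581) and quantile normalization (0.0564).

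Other feedback genes lay the same way without passing. Skil, which encodes the SMAD co-repressor SnoN, was at 36.6, 27.6 and 27.5 FPKM in WT and at 71.3, 56.6 and 60.7 in BMPR1a-deficient aTreg, a log2 fold change of 1.02 (SE 0.155, limma adjusted p = 0.0520). Its relative Ski was at 37.7, 27.7 and 33.4 FPKM and at 58.2, 51.4 and 48.4 (0.67, adjusted p = 0.112). Pmepa1, whose product also binds SMADs and limits the signal, was at 21.0, 12.1 and 13.5 FPKM and at 24.9, 30.1 and 30.9 (0.87, adjusted p = 0.151). For each of these genes WT replicate 1 was the highest of the WT libraries. Smad7, the inhibitory SMAD, had means of 24.7 and 31.8 FPKM (adjusted p = 0.337).

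Among the T cell genes of the list, Itgae and Ccr8 showed large differences that did not pass. Itgae encodes CD103, the αE integrin subunit that TGF-beta induces on T cells. It was at 49.5, 13.4 and 15.2 FPKM in WT and at 124, 198 and 195 in BMPR1a-deficient aTreg, a log2 fold change of 2.90 (SE 0.509, limma adjusted p = 0.0709). WT replicate 1 was more than 3 times the other WT libraries, and without it the log2 fold change was 3.47 (limma adjusted p = 0.0222). No other fit that left out a library passed (adjusted p from 0.0916 to 0.285), nor did the replicate block (0.196). Ccr8, a chemokine receptor of activated regulatory T cells, was at 74.5, 58.4 and 41.0 FPKM and at 83.3, 148 and 140 (1.08, adjusted p = 0.192). CD103 is also carried by CD8 T cells, whose marker Cd8a did not overlap between groups while Cd8b1 did (limma adjusted p = 0.236 and 0.634). Their part in the Itgae difference was not tested. Id2 and Id3, which BMP and TGF-beta signals regulate, had means of 22.1 and 14.1 FPKM and of 39.4 and 32.3 FPKM, and neither passed (adjusted p = 0.438 and 0.516).

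**Figure D4:**
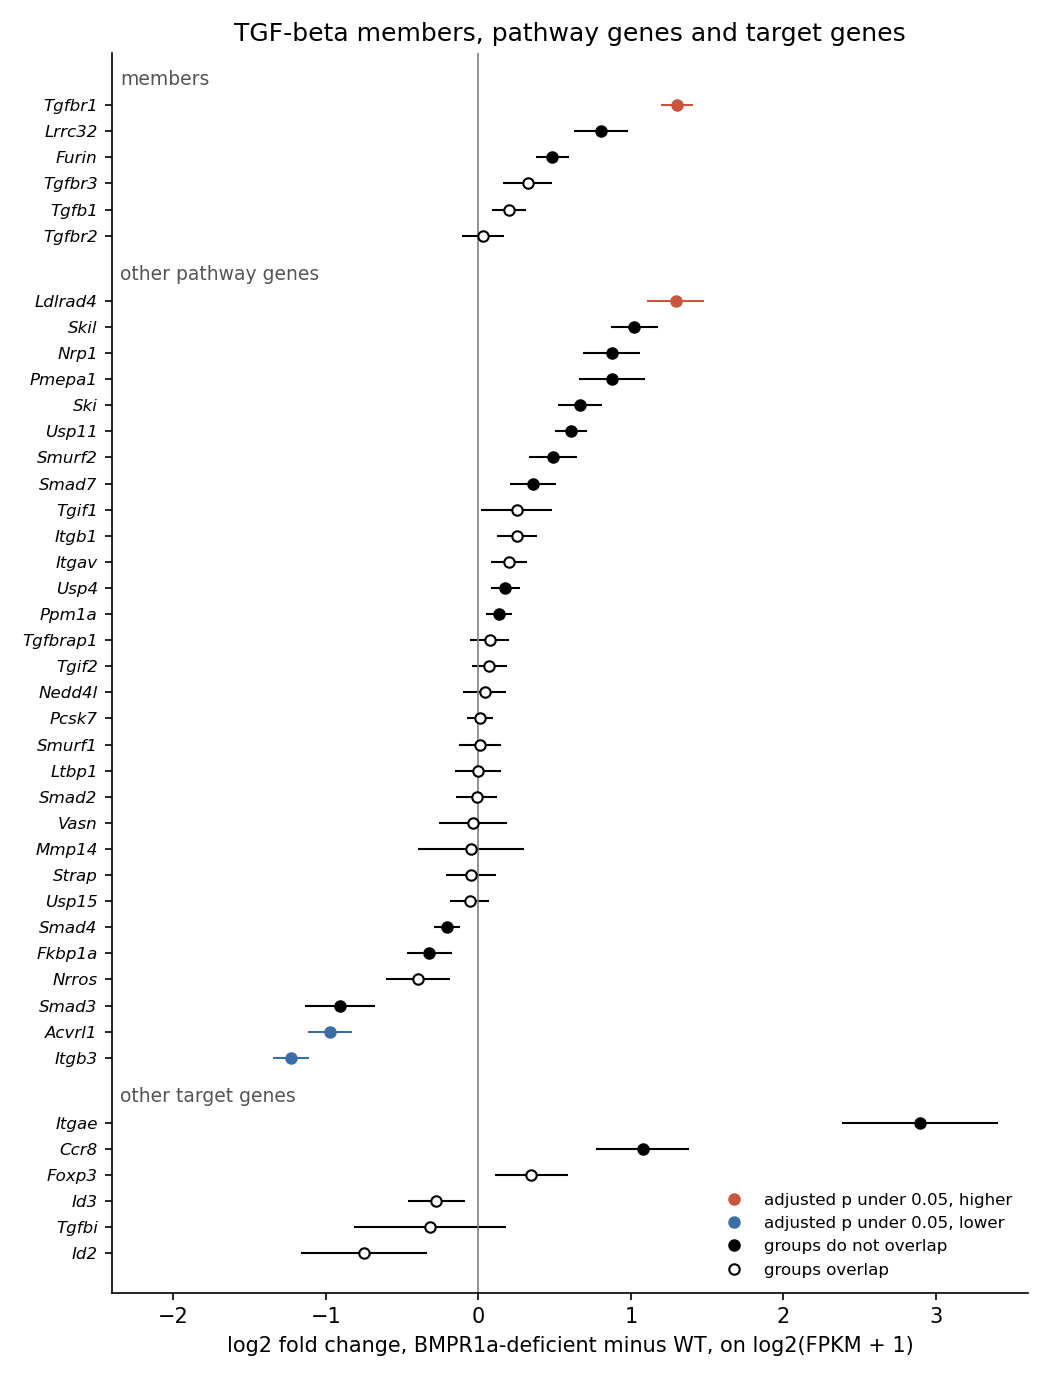
Log2 fold change, BMPR1a-deficient minus WT on log2(FPKM + 1), with its SE from limma, for the tested members, the other tested pathway genes and the tested target genes not already in the pathway list. Filled points mark genes whose groups do not overlap, and coloured points those with an adjusted p under 0.05. Tgfbr1 and Ldlrad4 are the coloured points on the higher side and Acvrl1 and Itgb3 those on the lower side.

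Across the 6 libraries the protein-coding genes whose log2(FPKM + 1) followed that of Tgfbr1 most closely, among 10361 tested, were Tnfrsf9 (Pearson r = 0.996), Tesk2 (0.996) and Fam234b (0.995). These correlations rest on 6 points that fall into the same 2 groups, so they restate which genes differ between the groups with little spread. Tnfrsf9, which encodes the costimulatory receptor 4-1BB, was at 129, 142 and 127 FPKM in WT and at 224, 263 and 242 in BMPR1a-deficient aTreg. As for Tgfbr1, replicate 2 was the highest library within each group. Tesk2, a protein kinase gene, ranged from 3.66 to 3.88 FPKM in WT and from 5.39 to 6.13 in BMPR1a-deficient aTreg, and Fam234b from 5.29 to 5.63 and from 10.4 to 11.1.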

How the data were processed

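RNA sequencing values of 6 libraries (3 WT, 3 BMPR1a-deficient) were deposited by the authors as FPKM, 1 column per library. TopHat2, Cufflinks, Cuffdiff and the build GRCm38.p4 are named per the submitters' processing notes. Not given in the sources used here: versions, settings, strand handling, annotation and scaling between libraries. Columns were matched to samples by title. Symbols and coordinates came from a GENCODE annotation of GRCm38, which matched 24876 of 25759 identifiers (96.6%).

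Count models were not used, as FPKM are not counts. Depth was estimated from the densest low value of FPKM times length in 3433 genes with 1 annotated transcript of 1000 to 5000 bases. It is approximate, and the fragment numbers per gene inherit this.

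The model was limma 3.58.1 (R 4.3.3), a fit with 1 coefficient for the group of log2(FPKM + 1) with a mean-variance trend in eBayes. It covered the 13413 genes whose FPKM averaged 1 or more. P-values are two-sided and Benjamini-Hochberg adjusted over all of these, with a threshold of 0.05. Fold changes on this scale understate those of low genes. Single values and ratios were compared with exact permutation tests (scipy 1.17.1). In data simulated on the 13413 genes, with 100 genes changed at each size, 49% of those shifted by log2 1 were called and 92% of those shifted by log2 2, while 2.76% of the 145 calls were unshifted genes. The shifted genes were drawn above a level higher than the filter. The simulated noise was normal and independent for each gene and library, with no library that stood apart. These rates may therefore not hold for the lowest genes or for these libraries.

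The members, the lists of pathway, target and marker genes, the tests and the alternatives were chosen with earlier results of these data known, so the lists are no independent support. The pathway and target genes named are those past the threshold and up to 8 others, by smallest p, whose groups do not overlap; further genes are given as context with their values, chosen after these were seen. For each called member the 3 most correlated protein-coding genes are named. Alternatives varied the pseudocount (0.1, 0.5), the filter (none, at least 5), the scaling, the eBayes trend, sample weights and a replicate block, and left out each library in turn. A value of 1 further gene is not reported here.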

Additional observations from a re-analysis of the deposited data

How the results depend on the processing

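Of the 13413 genes tested, 100 were higher and 43 lower. These counts became 833 and 407 with limma sample weights and 5 and 5 with a replicate block, and the lower count became 27 with a filter of at least 5 FPKM and 70 with quantile normalization. Leaving out 1 library gave 15 to 150 higher and 7 to 81 lower. The members called higher numbered 1, against 3 with sample weights, 0 with the replicate block and 0 to 1 without 1 library. The log2 fold change of Tgfbr1 lay between 1.23 and 1.41 over all alternatives. Tgfbr1 passed in all of them except the replicate block (adjusted p = 0.0878) and 3 fits that left out a library. The direction of the Tgfbr2 log2 fold change (0.0316) turned with upper-quartile scaling (-0.0129), and it ran from -0.0437 to 0.152 when 1 library was left out. It was negative without WT replicate 2 and without BMPR1a-deficient replicates 2 or 3, with no adjusted p under 0.05.

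Of the other pathway genes 1 was called higher, against 2 with a pseudocount of 0.1, 8 with sample weights, 0 with no filter, upper-quartile scaling, quantile normalization or the replicate block, and 0 to 1 without 1 library. Rescaling over nuclear protein-coding genes exchanged Ldlrad4 (adjusted p = 0.0502) for Skil (0.0495). The 2 called lower became 1 with no filter, the filter of 5, upper-quartile scaling, quantile normalization or rescaling over nuclear protein-coding genes, 0 with the replicate block, and 0 to 1 without 1 library. Of the target genes 1 was called higher, against 2 with a pseudocount of 0.1, 6 with sample weights, 0 with no filter, upper-quartile scaling, quantile normalization or the replicate block, and 0 to 2 without 1 library. With sample weights 10 of the genes named gained a call. The cause of these shifts was not tested. The fits that left out a library also held fewer libraries, and the part of this was not tested either.

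Deviations from the group means correlated at 0.01, 0.06 and 0.05 between same-numbered libraries. Between libraries of different number they correlated at -0.09 to 0.04. With 3 libraries per group these values cannot decide whether same-numbered libraries are paired. The log2 differences of the 3 ratios kept their direction in every alternative run for them, at 1.27 to 1.46 for Tgfbr1 to Tgfbr2, 0.54 to 0.83 for Lrrc32 to Tgfb1 and 0.20 to 0.36 for Furin to Tgfb1. Depth limits Tgfb3, Itgb8 and Ltbp3.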

Other observations

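Thbs1 of the pathway list and Tgfbi of the target list followed the libraries rather than the groups. Thbs1, which encodes thrombospondin-1, a matrix protein that can activate latent TGF-beta, was at 1.46, 0.71 and 0.80 FPKM in WT and at 0.06, 0.52 and 0.87 in BMPR1a-deficient aTreg. Tgfbi, a matrix gene that macrophages express, was at 3.44, 0.72 and 1.94 and at 0.40, 1.06 and 3.03 FPKM (limma adjusted p = 0.768). The macrophage lysozyme gene Lyz2 was at 84.5, 14.5 and 30.9 and at 8.71, 35.6 and 72.8 FPKM, so for Tgfbi and Lyz2 the libraries stood in the same order within each group. Eng, a pathway gene that encodes the co-receptor endoglin, differed between the groups instead. It was at 0.60, 0.44 and 0.36 FPKM in WT and at 1.17, 0.74 and 1.95 in BMPR1a-deficient aTreg, without overlap and mostly below 1 FPKM. These genes were chosen after their values were seen, and Thbs1 and Eng were below the filter for the test.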
